A study of Homo sapiens with 6 samples.

Results

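Alcohol dehydrogenases (ADH), aldehyde dehydrogenases (ALDH) and aldo-keto reductases (AKR) are described here in HepG2 cells after knockdown of KIF11. Every gene of the count table whose symbol begins with ADH, ALDH or AKR followed by a digit was taken, which gave 39 of the 20030 genes listed, namely 7 ADH, 19 ALDH and 13 AKR genes. HepG2 is an established human hepatoma line. The cells were infected with lentivirus carrying a control short hairpin RNA (sh-ctrl, 3 libraries) or one against KIF11 (sh-KIF11, 3 libraries), an mRNA that encodes a motor protein of the mitotic spindle. Both groups were thus HepG2 cells that carried an integrated hairpin vector, were selected with puromycin and differed in the hairpin, and which KIF11 hairpin was sequenced is not given in the sources used here. Cells process such a hairpin into a short interfering RNA, which lowers the mRNA it pairs with. The labels do not say whether the 3 libraries of a group came from separate cultures, so p-values measure the spread between these libraries, which may be technical.

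The 3 families act on alcohols and carbonyl compounds. ADH enzymes oxidise alcohols to aldehydes with NAD, ALDH enzymes oxidise aldehydes to carboxylic acids, and AKR enzymes reduce aldehydes, ketones and steroid carbonyls, mostly with NADPH. In liver they are known for ethanol and formaldehyde clearance, retinoic acid synthesis, amino acid breakdown, and steroid and bile acid metabolism. Several AKR genes are also known targets of the stress response factor NRF2.

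Library totals lay between 18167773 and 19583282 counts, and 3 counts in a library, the limit that a count of 0 allows, correspond to 0.145 to 0.178 CPM (counts brought to a common library size by the TMM method). The targeted mRNA, KIF11, was measured at 111, 115.7 and 121 CPM in the control libraries and at 72.2, 71.4 and 62.9 CPM after knockdown, and it fell by 0.75 on the log2 scale (SE 0.06, edgeR quasi-likelihood test, adjusted p = 4.22e-15). Of 10 hepatocyte markers, 9 fell and none rose, and their summed level was 36066 to 37787 CPM in sh-ctrl and 15593 to 16892 CPM in sh-KIF11. In bulk libraries, fewer cells of a kind and less RNA per cell cannot be told apart. Among markers of other cell types, PTPRC, CD3E, CDH5, STAB2, COL3A1, DCN, LUM and CFTR had at most 3 counts in every library. The summed levels in sh-ctrl and sh-KIF11 were 2488 to 2985 and 508 to 640 CPM for immune markers, mostly LYZ, 582 to 602 and 921 to 1044 CPM for cholangiocyte markers, of which KRT19 rose while SOX9 and EPCAM fell, and under 5 CPM throughout for endothelial and stellate markers. The part of the change in these markers in the results below was not tested.

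Across the whole table the groups differed widely, so counts of members are read against that background. edgeR tested 12369 genes and called 8548 at an adjusted p under 0.05 (69.1%), of which 4254 were higher (34.4%) and 4294 lower (34.7%) in sh-KIF11. Higher genes were 49.8% of the calls, but 73.6% with library totals alone in place of TMM, 68.7% with limma on log2(FPKM + 1) and 69.7% on log2(FPKM + 0.1). Over the whole table the median log2 fold change moved from 0.00 to 0.24, 0.12 and 0.17 under these settings.

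Of the 39 members, 30 had enough counts to be tested and 9 did not. Among the 30, 20 were called (66.7%, against 69.1% of all tested genes). They comprised 16 that fell (53.3%, against 34.7%) and 4 that rose (13.3%, against 34.4%). Of the 4, ALDH1A3 and ALDH1L2 passed the filter on low counts only through their sh-KIF11 libraries. With at least 10 counts required in every library, 15 fell and 3 rose. The split of 16 and 4 also depended on the scaling. With library totals alone 10 fell and 10 rose, beside 2373 lower and 6621 higher among all 12369 tested genes. With limma on log2(FPKM + 1) 11 fell and 8 rose, beside 2562 lower and 5628 higher among all tested genes. With a log2 change of at least 0.5 as well, 10 fell, where 13.9% of all tested genes did, and 3 rose, where 17.6% did. Library values of sh-ctrl and sh-KIF11 were fully apart for 21 of the 30 (all tested genes, 71.2%). Their median on the log2 scale was -0.17, beside 0.00 for the whole table.

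**Figure D1:**
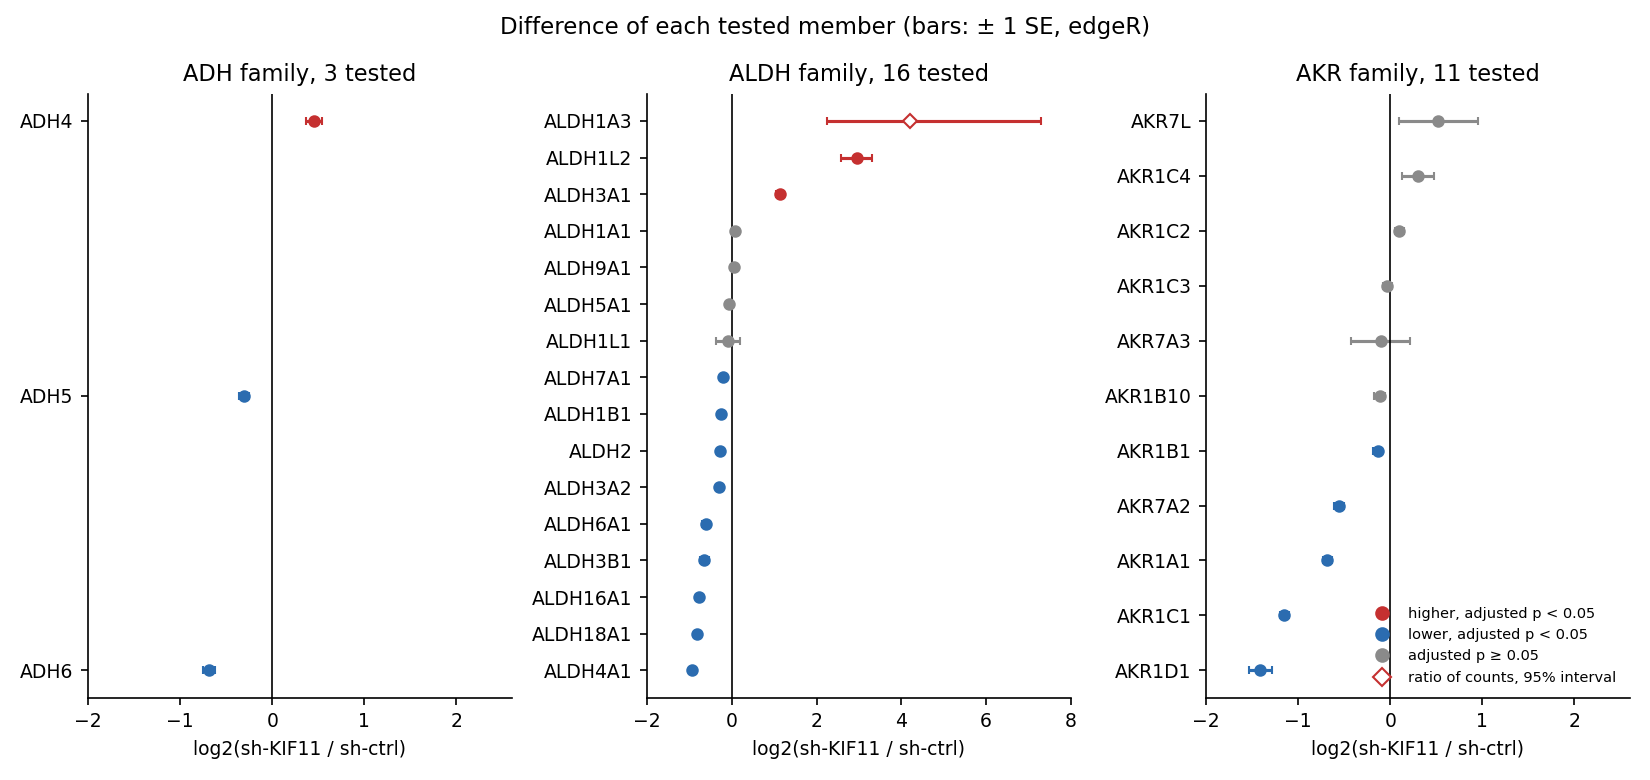
Difference between sh-KIF11 and sh-ctrl on the log2 scale (x axis, ranges differ between panels) for the 30 tested members, by family. Filled points are edgeR estimates with 1 SE, and the open diamond is the ratio of summed counts of ALDH1A3 with its 95% exact interval. ADH4, ALDH1A3, ALDH1L2 and ALDH3A1 lie to the right, 16 called members lie to the left, and of these AKR1B1 turns to the right with library totals alone or FPKM and ALDH7A1 with library totals alone.

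Levels can be compared between genes only on a scale that accounts for transcript length. On the FPKM scale AKR1C1 led in sh-ctrl (389 ± 8.13, mean ± SD, n = 3), followed by ALDH1A1 (220 ± 18), AKR1C3 (179 ± 6.27) and AKR1C2 (138 ± 1.90). ADH5 (110 ± 10.9) and AKR1A1 (100.04 ± 1.64) came next, with library values that overlapped, and ALDH18A1, ALDH2, AKR1B10 and ALDH4A1 lay between 70.7 and 87.2. In sh-KIF11 the order at the top was different. ALDH1A1 led with 258 ± 2.76 FPKM, and AKR1C1 (194 ± 10.6) and AKR1C3 (191 ± 4.66) overlapped each other.

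Summed over each family, the AKR genes stood at 980, 946 and 966 FPKM in sh-ctrl and at 744, 750 and 804 FPKM in sh-KIF11. The mean AKR sum was thus 964 and 766 FPKM, of which AKR1C1 alone gave 389 and 194 FPKM. AKR1C3 (179 and 191), AKR1C2 (138 and 159) and AKR1B10 (78.2 and 81.6) averaged higher in sh-KIF11 on this scale, and AKR1A1 (100.04 and 69.2) and AKR7A2 (40.3 and 31.6) lower. The ALDH genes summed to 638, 628 and 661 FPKM against 614, 611 and 613 FPKM. For the ADH genes the sums were 129, 141 and 156 FPKM against 126, 124 and 127 FPKM. In all 3 families every sh-KIF11 library was below every sh-ctrl library, which with 3 against 3 libraries gives a two-sided exact permutation p of 0.10, the smallest this design allows.

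**Figure D2:**
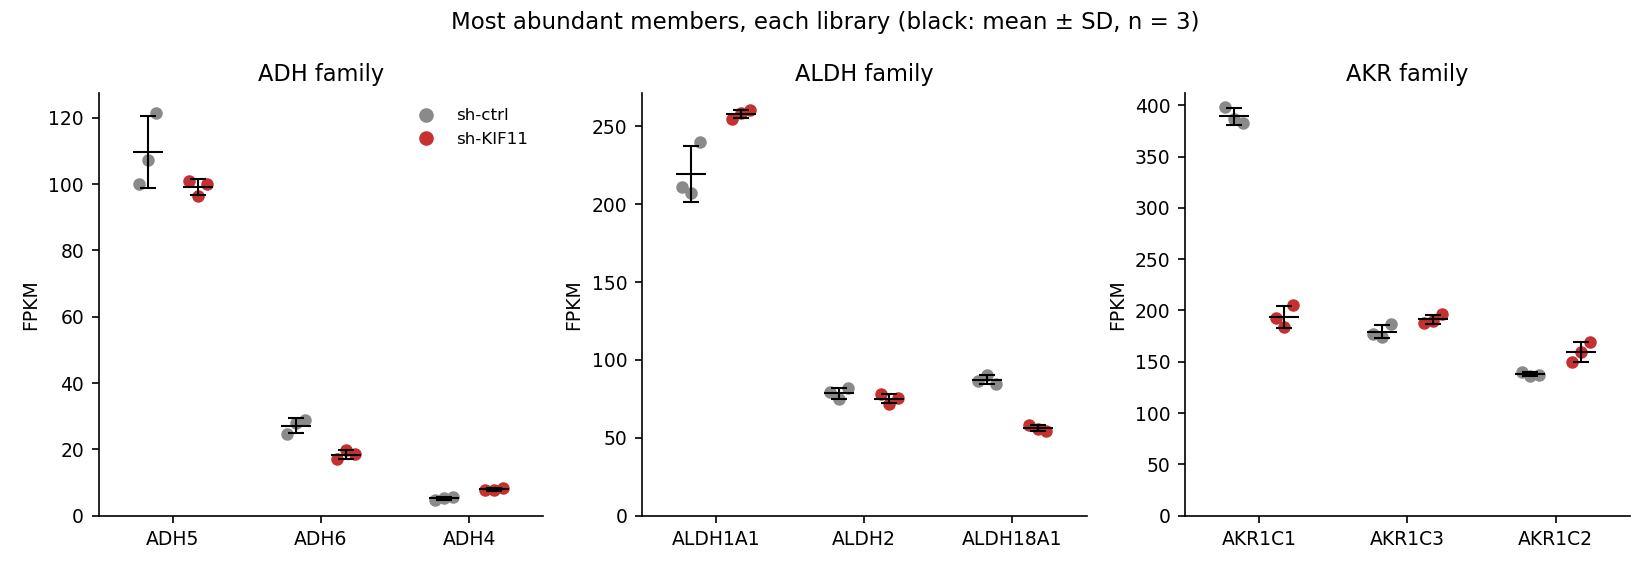
FPKM (y axis, from 0) of the 3 most abundant members of each family in each library, grey for sh-ctrl and red for sh-KIF11, with the mean and SD of 3 libraries in black. AKR1C1 drops from about 389 to 194 FPKM and ALDH18A1 from 87.2 to 56.2 FPKM, while ALDH2 overlaps between the groups on this scale.

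The 7 ADH genes form a tandem cluster on chromosome 4, all on the minus strand, from ADH5 at chr4:99070978-99088801 to ADH7 at chr4:99412261-99435737 (GRCh38). Read along the chromosome, the order is ADH5, ADH4, ADH6, ADH1A, ADH1B, ADH1C and ADH7. The first 3 were expressed in HepG2 and neighbours moved in opposite directions. The other 4 were at or near the detection limit.

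ADH5, the glutathione-dependent formaldehyde dehydrogenase present in most tissues, was the most abundant ADH mRNA and made up 77.2% ± 0.84 of the summed ADH FPKM in sh-ctrl. Its level was 229, 249 and 291 CPM in sh-ctrl and 214, 201 and 208 CPM in sh-KIF11. The groups did not overlap on this scale, and ADH5 fell by 0.31 on the log2 scale (SE 0.06, adjusted p = 1.17e-05). The call was lost with library totals alone (log2 fold change -0.07) and on the FPKM scale (-0.14), where the libraries overlapped.

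ADH6, a class V enzyme whose substrates are little known, was at 80.7, 90.7 and 95.9 CPM in sh-ctrl. The sh-KIF11 libraries held 52.6, 58.2 and 55.4 CPM, all lower, and ADH6 fell by 0.69 (SE 0.06, adjusted p = 6.48e-13). ADH4, a class II enzyme of liver that acts on ethanol at high concentration and on retinol, moved the other way, from 14.2, 16.1 and 18.5 CPM to 21.5, 22.1 and 23.1 CPM. Every sh-KIF11 library was above every sh-ctrl library, and the log2 fold change was 0.45 (SE 0.09, adjusted p = 3.32e-05). The gene span of an antisense transcript, AP002026.1, overlaps ADH4, ADH6 and ADH1A, but none of the 150-base windows of their transcripts occurs in a transcript of another gene.

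ADH1A, ADH1B and ADH1C encode the class I enzymes that carry most ethanol oxidation in adult liver. They had between 0 and 6 counts per library, and their summed level stayed between 0.168 and 0.435 CPM, too low to test. ADH7, a class IV enzyme of stomach and oesophagus, had no count in any library, which allows up to 3 counts in each. Differences in these 4 genes were not detectable at this depth.

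Among the ALDH genes that act on acetaldehyde and retinal, the abundant members shifted little. ALDH2, the mitochondrial enzyme that clears acetaldehyde formed from ethanol, was at 205, 197 and 214 CPM in sh-ctrl and 177, 162 and 170 CPM in sh-KIF11. It fell by 0.27 (SE 0.05, adjusted p = 9.47e-06) without overlap. ALDH1B1, a second mitochondrial acetaldehyde dehydrogenase, ranged from 211 to 223 CPM in sh-ctrl and from 179 to 184 CPM in sh-KIF11, and fell by 0.26 (SE 0.05, adjusted p = 1.34e-05). Both calls were lost with library totals alone (log2 fold changes -0.04 and -0.02) and with log2(FPKM + 1) (-0.06 for each).

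ALDH1A1, a cytosolic enzyme that makes retinoic acid from retinal, held 583, 572 and 685 CPM in sh-ctrl and 638, 652 and 652 CPM in sh-KIF11. The third sh-ctrl library lay above all sh-KIF11 libraries, so the groups overlapped, and the log2 fold change of 0.08 (SE 0.05) did not pass the test (adjusted p = 0.186). Without that library it was 0.16 (adjusted p = 1.57e-04), with library totals alone 0.31 and on log2(FPKM + 1) 0.23, each of which passed. Its share of the summed ALDH FPKM was 33.0% to 36.3% in sh-ctrl and 41.5% to 42.5% in sh-KIF11.

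For ALDH1A3, another retinal dehydrogenase, the control libraries gave 1, 1 and 0 counts and the knockdown libraries 10, 12 and 20. All 3 sh-KIF11 libraries were above 3 counts and no sh-ctrl library was. ALDH1A3 passed the filter on low counts only through its sh-KIF11 libraries, so it could enter the test only as a higher gene. The ratio of the scaled sums was 18.3, with a 95% exact interval of 4.76 to 156 for counting error only, and ALDH1A3 was called higher (adjusted p = 1.64e-05). An antisense transcript, AC015712.2, holds 30.01% of the 150-base windows of the ALDH1A3 transcript, and without the strand setting of the counting, which is not given in the sources used here, reads from that stretch cannot be assigned to one of the pair. ALDH1A2, the third retinal dehydrogenase, had 1 count in 1 library and none elsewhere.

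The ALDH enzymes of amino acid breakdown and synthesis included the largest falls of the family. ALDH4A1, the mitochondrial enzyme that turns pyrroline-5-carboxylate into glutamate in proline breakdown, was at 375, 345 and 338 CPM in sh-ctrl and at 187, 184 and 185 CPM in sh-KIF11. The sh-KIF11 mean was 0.525 of the sh-ctrl mean, and ALDH4A1 fell by 0.93 (SE 0.05, adjusted p = 5.08e-20). The overlapping gene AL080251.1 shares 32.8% of its 150-base windows. ALDH18A1, which catalyses the opposite step from glutamate toward proline, held 486, 500 and 476 CPM in sh-ctrl and 287, 272 and 264 CPM in sh-KIF11. It fell by 0.83 (SE 0.05, adjusted p = 1.01e-18), so mRNAs of both directions of the route were lower.

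ALDH6A1, the methylmalonate semialdehyde dehydrogenase of valine breakdown, was at 27.6, 29.98 and 28.8 CPM in sh-ctrl and at 20.6, 18.2 and 17.5 CPM in sh-KIF11. It fell by 0.62 (SE 0.08, adjusted p = 1.58e-08), with no overlap. ALDH7A1, which acts in lysine breakdown, ranged from 154 to 163 CPM in sh-ctrl and from 132 to 147 CPM in sh-KIF11 and fell by 0.20 (SE 0.05, adjusted p = 7.42e-04), a direction that turned to 0.03 with library totals alone. ALDH5A1, the succinic semialdehyde dehydrogenase of GABA breakdown, was at 145 to 147 CPM against 136 to 142 CPM. Its log2 fold change of -0.07 (SE 0.05) did not pass (adjusted p = 0.187), although the groups did not overlap, and it was positive with library totals alone (0.16, past the test), upper-quartile factors (0.01) and FPKM (0.10).

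ALDH9A1, which oxidises aminobutyraldehyde and serves carnitine synthesis, lay between 44.0 and 48.4 CPM in sh-ctrl and between 46.0 and 48.7 CPM in sh-KIF11 (log2 fold change 0.05, SE 0.07, adjusted p = 0.520). The groups overlapped. It passed the test as higher with library totals alone (0.28) and with log2(FPKM + 1) (0.19). ALDH8A1, an enzyme of tryptophan breakdown, had 4 to 19 counts and was not tested. Of the 8 ALDH enzymes that reside in mitochondria (ALDH2, ALDH1B1, ALDH1L2, ALDH4A1, ALDH5A1, ALDH6A1, ALDH7A1 and ALDH18A1), 6 fell, 1 rose and 1 did not pass, beside 34.7% lower and 34.4% higher among all tested genes. Of these, 3 fell and 2 rose with library totals alone, beside 2373 lower and 6621 higher among all 12369 tested genes.

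The member that rose among them was ALDH1L2, the mitochondrial formyl-tetrahydrofolate dehydrogenase, which yields NADPH from folate-bound carbon units. Its counts were 7, 8 and 2 in the control libraries and 43, 49 and 61 after knockdown, or 0.318 ± 0.175 and 2.53 ± 0.496 CPM. All sh-KIF11 libraries were above all sh-ctrl libraries, and the log2 fold change was 2.95 (SE 0.37, adjusted p = 2.63e-09). Like ALDH1A3, it passed the filter on low counts only through its sh-KIF11 libraries and could enter the test only as a higher gene. ALDH1L2 supplied 0.04% of the summed ALDH FPKM in sh-KIF11. Its cytosolic counterpart ALDH1L1 was at 1.44 to 2.13 CPM and 1.35 to 1.98 CPM, with a log2 fold change of -0.09 (SE 0.28, adjusted p = 0.790) that turned positive with library totals alone (0.14), on log2(FPKM + 1) (0.06) and without sh-ctrl replicate 1 (0.11) or sh-KIF11 replicate 1 (0.02).

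ALDH3A1 and ALDH3A2 are neighbours on chromosome 17 (chr17:19737984-19748943 and chr17:19648136-19677598, GRCh38) and moved in opposite directions. ALDH3A1 oxidises aromatic and lipid-derived aldehydes and is known as a gene induced by aryl hydrocarbon receptor ligands. It rose from 15.2, 12.4 and 10.49 CPM to 25.6, 27.3 and 31.2 CPM, a log2 fold change of 1.14 (SE 0.10, adjusted p = 2.37e-13). Every sh-KIF11 library was above every sh-ctrl library. ALDH3A2, the fatty aldehyde dehydrogenase, was at 244, 240 and 271 CPM in sh-ctrl and at 209, 204 and 198 CPM in sh-KIF11, and fell by 0.31 (SE 0.05, adjusted p = 1.46e-06). With library totals alone its log2 fold change was -0.07 and did not pass. AC005722.3 overlaps ALDH3A1 on the opposite strand and AC115989.1 overlaps ALDH3A2 likewise, with no shared window of 150 bases.

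ALDH3B1, which acts on aldehydes from lipid oxidation, held 16.0, 16.8 and 15.3 CPM in sh-ctrl and 9.22, 11.3 and 10.1 CPM in sh-KIF11. It fell by 0.65 (SE 0.10, adjusted p = 5.83e-07), and its groups did not overlap. ALDH16A1, a family member that lacks a catalytic residue in mammals, went from 60.3, 55.5 and 50.4 CPM to 34.1, 31.5 and 32.3 CPM and fell by 0.76 (SE 0.07, adjusted p = 2.62e-12). ALDH3B2 had at most 2 counts in any library. In all, the ALDH family had 9 members that fell (56.25%, against 34.7% of all tested genes) and 3 that rose (18.75%, against 34.4%). Another 4 of the 16 tested did not pass, and the median log2 fold change was -0.23. Library totals alone gave 5 that fell and 6 that rose (median 0.00). Beside these stand 2373 lower and 6621 higher among all 12369 tested genes (median 0.24) at that setting.

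**Figure D3:**
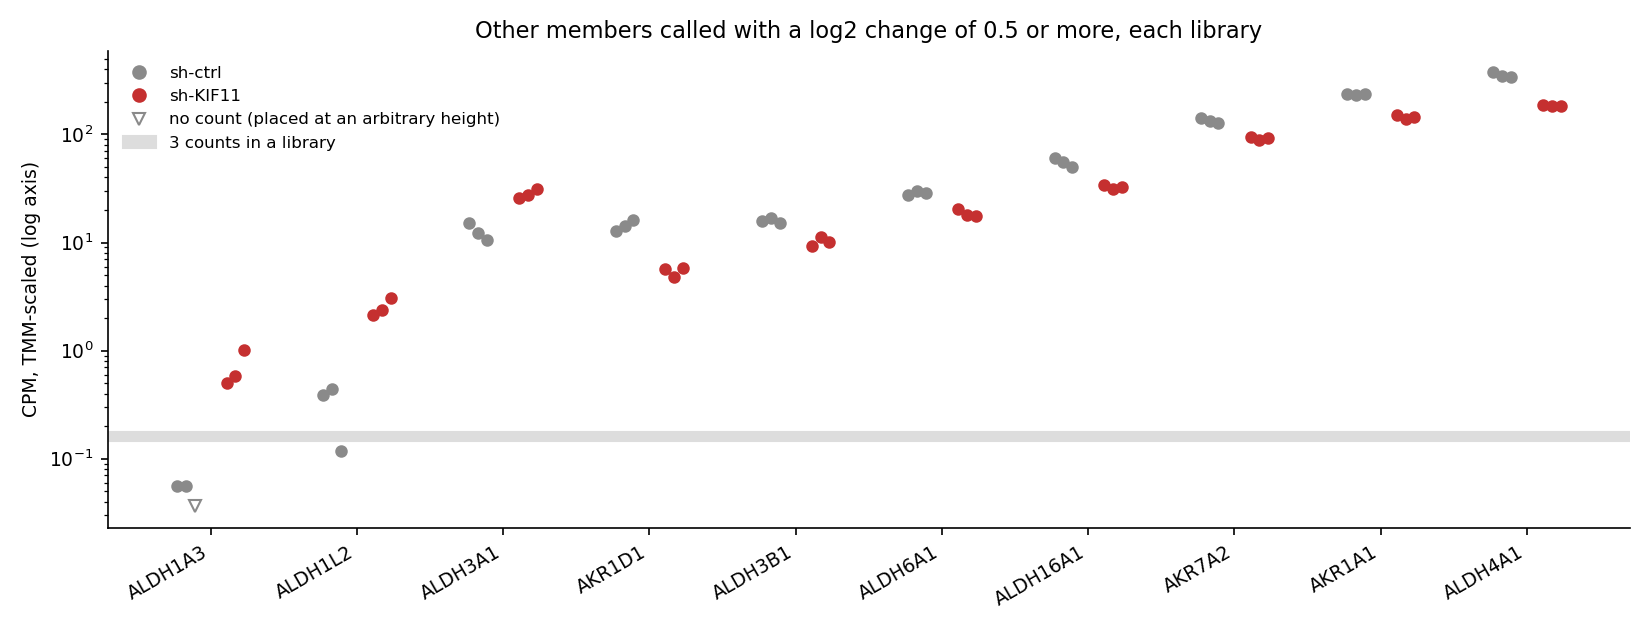
CPM scaled by TMM (log axis) in each library for the members called with a log2 change of at least 0.5 that are not among the most abundant 3 of their family. Grey points are sh-ctrl and red points sh-KIF11, the triangle is a library with no count, and the band marks 3 counts per library. In each of these 10 genes the red and grey points are apart, with ALDH1A3, ALDH1L2 and ALDH3A1 higher and the other 7 lower in sh-KIF11.

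The AKR family had 5 members that fell among 11 tested (45.45%, against 34.7% of all tested genes), and 6 did not pass. None rose at an adjusted p under 0.05 in edgeR, where 34.4% of all tested genes did. At an unadjusted p under 0.05 edgeR gave 0 higher as well, and DESeq2 called 0 higher at an adjusted p under 0.05. The median log2 fold change was -0.11, but 0.12 with library totals alone and 0.05 on the FPKM scale. Over all tested genes the median was 0.00, and 0.24 with library totals alone. On log2(FPKM + 1) and log2(FPKM + 0.1) the whole-table median was 0.12 and 0.17. The most abundant AKR mRNA in sh-ctrl was AKR1C1, a steroid reductase that inactivates progesterone. The AKR1C genes lie side by side on chromosome 10, AKR1C1 at chr10:4963253-4983283 on the plus strand, AKR1C2 at chr10:4987400-5018031 on the minus strand, then AKR1C3 and AKR1C4 (GRCh38).

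AKR1C1 was at 1364, 1347 and 1368 CPM in sh-ctrl and at 612, 585 and 640 CPM in sh-KIF11, which is 0.45 of the sh-ctrl mean. It fell by 1.15 (SE 0.05, adjusted p = 9.85e-24). AKR1C2, which acts mainly on dihydrotestosterone and bile acids, held 734, 721 and 753 CPM in sh-ctrl and 739, 793 and 828 CPM in sh-KIF11. The groups overlapped and the log2 fold change of 0.10 (SE 0.05) did not pass (adjusted p = 0.0774). It passed as higher without sh-ctrl replicate 3 (0.11) or sh-KIF11 replicate 1 (0.14), with at least 10 counts required in every library (0.12), with upper-quartile factors (0.17), with library totals alone (0.33) and on log2(FPKM + 1) (0.21).

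AKR1C3, which forms testosterone and prostaglandin F from their ketone precursors, was at 465, 470 and 506 CPM and at 466, 464 and 480 CPM. The log2 fold change was -0.03 (SE 0.05, adjusted p = 0.567) and turned positive with upper-quartile factors (0.05), library totals alone (0.20, past the test), FPKM (0.09) and without sh-ctrl replicate 3 (0.00). AKR1C4, an enzyme of liver steroid and bile acid metabolism, was low, at 3.98 to 4.68 CPM against 4.11 to 6.24 CPM, with a log2 fold change of 0.30 (SE 0.17, adjusted p = 0.115). It passed as higher without sh-KIF11 replicate 2 (0.47), with upper-quartile factors (0.38), with library totals alone (0.53) and on log2(FPKM + 1) (0.30).

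The makeup of the subfamily was accordingly different between the groups. AKR1C1 gave 55.5%, 55.2% and 54.0% of the summed AKR1C FPKM in the control libraries, against 36.0%, 34.4% and 35.7% after knockdown. The share of AKR1C2 was 19.4% to 19.5% in sh-ctrl and 28.1% to 29.8% in sh-KIF11. The ratio of AKR1C1 to AKR1C2 in raw counts was 1.86, 1.87 and 1.82 in the control libraries, against 0.828, 0.738 and 0.773 after knockdown, a ratio within each library that no scaling of libraries alters. With 3 against 3 libraries the two-sided exact permutation p of this ratio is 0.10, the smallest possible.

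**Figure D4:**
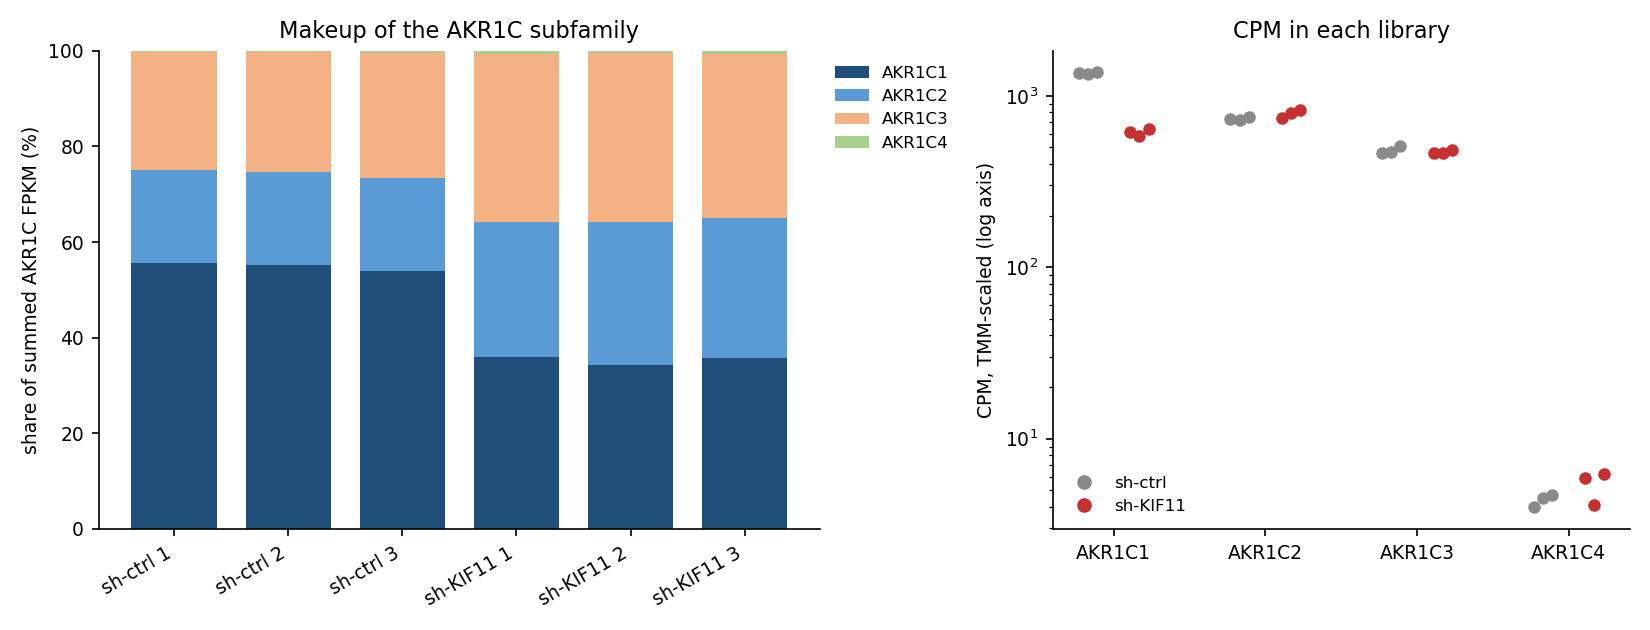
Left, share of the summed AKR1C FPKM (%) taken by each gene in each of the 6 libraries. Right, CPM scaled by TMM (log axis) of the same genes, grey for sh-ctrl and red for sh-KIF11. AKR1C1 falls from 54.0% to 55.5% of the sum in sh-ctrl to 34.4% to 36.0% in sh-KIF11, while on the right AKR1C2, AKR1C3 and AKR1C4 overlap between the groups.

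AKR1C1 and AKR1C2 are close copies, so their windows upstream of the transcription start are shown to set the unequal change beside the sequence. Their coding sequences are identical at 950 of 969 bases (98.0%), against 91.8% for AKR1C1 and AKR1C3. The 250 bases before the RefSeq start of each (GRCh38.p14, chr10:4963165-4963414 on the plus strand and chr10:5003858-5004107 on the minus strand, written 5′ to 3′) match at 245 of 246 aligned bases, and capitals mark bases without an identical partner in the other gene.
AKR1C1: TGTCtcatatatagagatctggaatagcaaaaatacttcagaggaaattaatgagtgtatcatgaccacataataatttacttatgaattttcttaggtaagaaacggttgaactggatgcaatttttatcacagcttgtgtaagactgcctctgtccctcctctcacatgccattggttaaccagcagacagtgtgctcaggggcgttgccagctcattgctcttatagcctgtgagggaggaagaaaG
AKR1C2: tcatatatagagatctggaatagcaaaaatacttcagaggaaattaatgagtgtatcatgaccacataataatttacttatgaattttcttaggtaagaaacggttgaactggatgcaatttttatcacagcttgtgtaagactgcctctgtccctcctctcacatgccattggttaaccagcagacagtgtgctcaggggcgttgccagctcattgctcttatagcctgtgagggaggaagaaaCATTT
The 2 windows are shifted by 4 bases against each other, which accounts for 4 of the 5 capitals in each. AKR1C1 and AKR1C3 match at 76.8% of aligned bases in the same window. By the gene spans given above, the AKR1C2 window lies inside its gene and the AKR1C1 window overlaps the start of its gene. Which starts the cells used was not tested.

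Such likeness also bears on the counts. Of the 150-base windows of the transcripts (the read length), 11.3% of AKR1C1 and 21.2% of AKR1C2 occur in a transcript of another AKR1C gene, 2.67% of AKR1C3 and none of AKR1C4. How reads that match 2 genes were treated is not given in the sources used here. The 4 genes summed to 2568, 2542 and 2632 CPM in sh-ctrl and to 1823, 1846 and 1955 CPM in sh-KIF11. The sum fell by 0.46 (SE 0.05, edgeR adjusted p = 2.59e-11). It does not depend on how assigned reads were divided among the 4 genes, but it lacks shared reads if these were discarded.

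AKR1D1, the reductase that saturates the steroid ring in bile acid synthesis, had the most negative log2 fold change of the 30 tested members. It was at 12.8, 14.4 and 16.2 CPM in sh-ctrl and at 5.68, 4.78 and 5.83 CPM in sh-KIF11, and fell by 1.41 (SE 0.12, adjusted p = 2.51e-13). AKR1A1, an aldehyde reductase with broad substrates that also acts in ascorbate synthesis in other mammals, held 237, 229 and 235 CPM in sh-ctrl and 152, 140 and 144 CPM in sh-KIF11. It fell by 0.68 (SE 0.05, adjusted p = 8.43e-16), with no overlap.

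AKR1B1, the aldose reductase that starts the polyol pathway, ranged from 128 to 136 CPM in sh-ctrl and from 115.5 to 123 CPM in sh-KIF11. It fell by 0.14 (SE 0.05, adjusted p = 0.0172), but the call was lost without sh-ctrl replicate 1 or sh-KIF11 replicate 3 (-0.11 each) and with upper-quartile factors (-0.06), and the sign turned with library totals alone (0.09) and FPKM (0.05). AKR1B10, a retinal and aliphatic aldehyde reductase often raised in hepatocellular carcinoma, was at 300.3, 264 and 300.3 CPM and at 232, 264 and 304 CPM. The groups overlapped, and the log2 fold change of -0.11 (SE 0.06) did not pass (adjusted p = 0.0973). It passed as lower without sh-ctrl replicate 2 (-0.17) or sh-KIF11 replicate 3 (-0.22) and turned positive with library totals alone (0.12) and FPKM (0.05). The neighbouring copy AKR1B15 had 0 to 2 counts in sh-ctrl and 4 to 8 counts in sh-KIF11 and was not tested.

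AKR7A2, a succinic semialdehyde and aflatoxin aldehyde reductase, was at 143, 134 and 129 CPM in sh-ctrl and at 93.8, 89.4 and 92.8 CPM in sh-KIF11. It fell by 0.55 (SE 0.05, adjusted p = 2.91e-12). Its neighbours on chromosome 1 were near the limit of detection. AKR7A3, an aflatoxin aldehyde reductase, had 13 to 26 counts (log2 fold change -0.11, SE 0.32, adjusted p = 0.782, of either sign across settings), and AKR7L, a gene or pseudogene by its annotation, had 6 to 17 counts (0.52, SE 0.43, adjusted p = 0.279). AKR7L and AKR7A3 share 7.70% and 6.21% of their windows. AKR1E2 had at most 1 count.

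The enzymes that hand substrates to these families, or take their products, were summarised from lists of genes outside the 3 families, with TMM scaling. Their counts stand beside 34.7% lower and 34.4% higher among all tested genes. With library totals alone, 2373 of all 12369 tested genes were lower and 6621 higher (median 0.24). With limma on log2(FPKM + 0.1), 2423 were lower and 5580 higher. On the ethanol and acetate route 5 of 6 tested genes fell and 1 rose, while with library totals alone 3 fell and 1 rose, and with limma on log2(FPKM + 0.1) 2 fell and 1 rose. CYP2E1, the microsomal ethanol oxidase, rose from 0.419 ± 0.124 to 2.30 ± 0.313 CPM (log2 fold change 2.44, adjusted p = 3.86e-08). It passed the filter on low counts only through its sh-KIF11 libraries. ACSS2, which activates acetate in the cytosol, fell from 104 ± 6.78 to 57.8 ± 0.503 CPM (-0.85, adjusted p = 1.06e-16). The list's median was -0.30, beside 0.00 for all tested genes.

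On the retinoid route 15 of 25 genes were tested, of which 4 rose, 6 fell and 5 did not pass (median -0.13). With library totals alone 5 rose and 4 fell (median 0.10). CYP26A1, which degrades retinoic acid, rose from 0.281 ± 0.144 to 0.956 ± 0.215 CPM (log2 fold change 1.73, adjusted p = 0.00101). It likewise passed the filter on low counts only through its sh-KIF11 libraries. Named here after their values were seen, the retinoic acid-binding protein CRABP2 (1.59) and a second retinoic acid hydroxylase, CYP26B1 (1.30), were also higher, both below 2 CPM on average. RBP4, the plasma retinol carrier made by liver and likewise named after its values were seen, was far more abundant and fell from 706 ± 26.0 to 242 ± 5.71 CPM (-1.55, adjusted p = 7.26e-28).

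Among partners in proline, lysine, GABA and folate metabolism, 19 genes were tested, of which 10 fell, 2 rose and 7 did not pass (median -0.13). With library totals alone 8 fell and 7 rose (median 0.10). PRODH2, which oxidises hydroxyproline, fell from 29.9 ± 1.86 to 10.4 ± 1.57 CPM (log2 fold change -1.53, adjusted p = 7.17e-18), and SHMT1, the cytosolic serine hydroxymethyltransferase, fell from 110 ± 3.50 to 49.3 ± 2.099 CPM (-1.16, adjusted p = 2.55e-21). Bile acid and steroid partners showed 10 that fell, 3 that rose and 4 that did not pass among 17 tested (median -0.36), and with library totals alone 6 that fell and 5 that rose. HSD17B2, which oxidises estradiol and testosterone, fell from 28.7 ± 1.62 to 9.25 ± 0.537 CPM (-1.63, adjusted p = 2.36e-19). CYP7A1, the rate-limiting enzyme of bile acid synthesis, rose from 2.29 ± 0.549 to 4.93 ± 0.183 CPM (1.11, adjusted p = 4.45e-06).

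Partners in polyol, glyoxal and formaldehyde metabolism fell in 7 of 8 tested genes, and 1 did not pass (median -0.62), while with library totals alone 5 fell and 1 rose. KHK, the fructose kinase, fell from 138 ± 6.89 to 63.4 ± 2.36 CPM (log2 fold change -1.12, adjusted p = 1.90e-21), and DCXR, a sugar and dicarbonyl reductase, from 119 ± 3.33 to 56.3 ± 1.08 CPM (-1.09, adjusted p = 5.37e-21). NRF2 targets outside the families had the other balance. Among 20 tested, 10 rose, 6 fell and 4 did not pass (median 0.19). With library totals alone 13 rose and 3 fell, beside 6621 higher and 2373 lower among all 12369 tested genes. GCLM, a subunit of the enzyme that limits glutathione synthesis, rose from 37.8 ± 0.877 to 106 ± 7.43 CPM (1.49, adjusted p = 6.79e-24), and the transporter gene ABCC3 from 87.8 ± 2.61 to 199 ± 8.32 CPM (1.18, adjusted p = 6.46e-23).

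**Figure D5:**
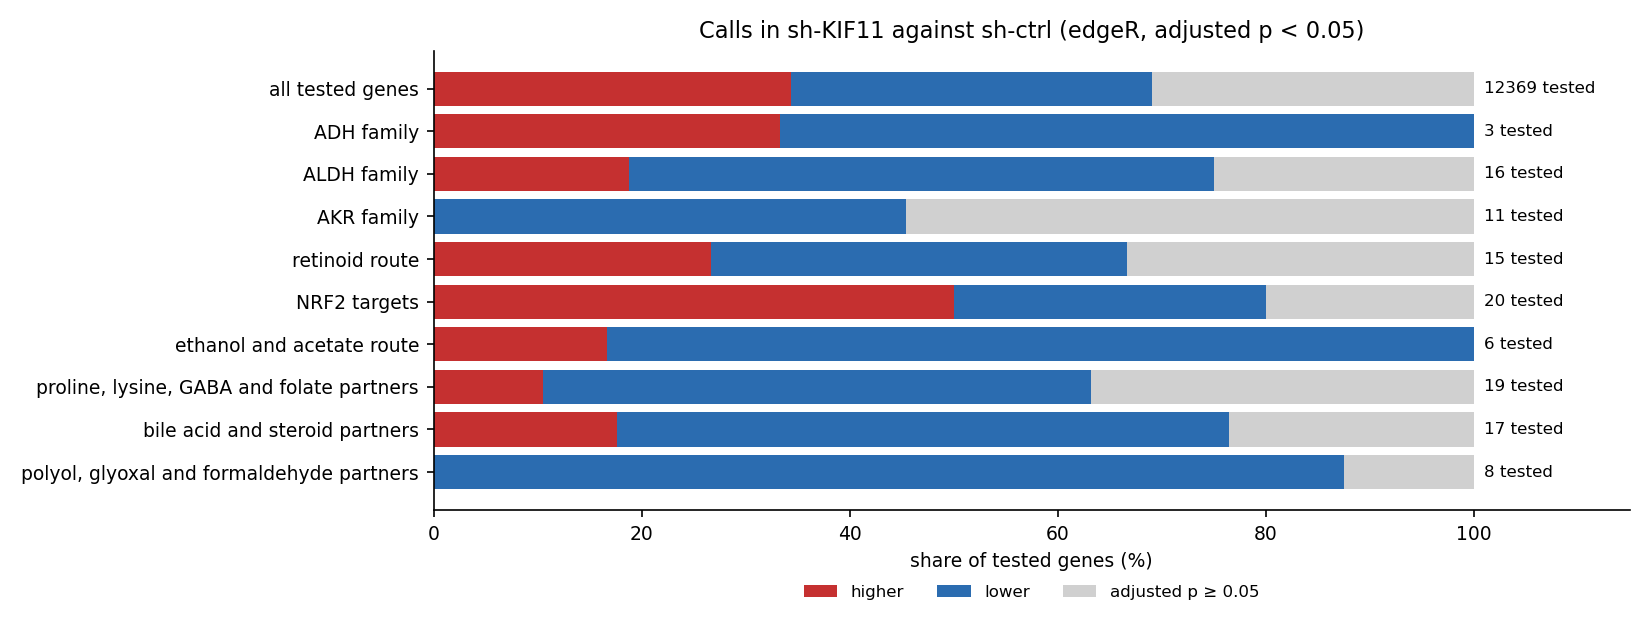
Share of tested genes (x axis, %) called higher, called lower or not past an adjusted p of 0.05 in edgeR, for all tested genes, the 3 families and the 6 partner lists, with the number tested at the right. Among all tested genes 34.4% were higher and 34.7% lower. The AKR family and the polyol, glyoxal and formaldehyde list had no gene called higher in this fit. With library totals alone 3 AKR genes and 1 gene of that list were, beside 6621 of all 12369 tested genes.

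The core of the antioxidant response element to which NRF2 binds, TGACNNNGC, was sought on both strands in the 250 bases before RefSeq starts (GRCh38.p14). It occurs in 10.9% of the 35116 windows of that length. Windows were found for 31 of the 39 members, 41 windows in all. AKR1B10, AKR1B15, AKR7L, ALDH16A1, ALDH1L2, ALDH2, ALDH3A1 and ALDH3B2 had no window and were not searched. A match occurred in 2 windows (4.88%), both of AKR7A2 and overlapping, with 3 in each. A match is a description of the letters and not a bound site.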

How the data were processed

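Messenger RNA of 6 HepG2 libraries (3 sh-ctrl, 3 sh-KIF11) was sequenced from a stranded kit as 150-base read pairs. The authors deposited 1 table of raw read counts per gene and FPKM values per gene. Per the labels' processing notes, bcl2fastq 1.8.4, Trimmomatic, HISAT2 2.1.0, Cufflinks 2.2.1, HTSeq 0.9.1 and DESeq were used on GRCh38. The strand setting, the annotation and the treatment of reads matching several genes are not given in the sources used here. Columns named shRNA were taken as the sh-KIF11 libraries, the one non-control group of the labels.

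Counts as deposited were scaled by TMM, filtered with filterByExpr (12369 genes tested, 7661 not) and tested with the quasi-likelihood test of edgeR 4.0.16 in R 4.3.3. P-values were adjusted by Benjamini-Hochberg over all tested genes and called under 0.05. FPKM values were used to compare levels between genes and, as log2(FPKM + 1) and log2(FPKM + 0.1), for limma 3.58.1. DESeq2 1.42.0, other scalings and filters, a replicate block, leaving out each library and summing near-identical copies were alternatives. The edgeR, DESeq2 and limma fits were tested on simulated counts with known changes. Limits for counts of 0 and count intervals cover counting error only. All members tested are named, and the 2 largest called changes of each partner list, except 1 gene that is not reported here. The members and lists were chosen with earlier results of these data known.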

Additional observations from a re-analysis of the deposited data

How the results depend on the processing

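Over 30 tested members and 16 alternative settings, 402 of 469 values kept their direction and their side of the threshold, 24 passed it newly, 17 no longer passed and 26 changed sign. For 14 members no setting that tested them changed the call: ADH4, ADH6, AKR1A1, AKR1C1, AKR1D1, AKR7A2, ALDH16A1, ALDH18A1, ALDH3A1, ALDH3B1, ALDH4A1, ALDH6A1, ALDH1A3 and ALDH1L2, the last 2 untested where 10 counts were required in every library. The cause of the other changes was not tested. Calls are given next as higher and lower. Among all tested genes they were 6621 and 2373 with library totals alone, and 5628 and 2562 with limma on log2(FPKM + 1). They were 5580 and 2423 with log2(FPKM + 0.1), and 5014 and 3563 with upper-quartile factors. Where 10 counts were required in every library they were 4043 and 4019. For the families, library totals alone gave 1 and 1 in ADH, 6 and 5 in ALDH, and 3 and 4 in AKR. In the same order, limma on log2(FPKM + 1) gave 1 and 1, 5 and 6, and 2 and 4. With log2(FPKM + 0.1) they were 1 and 1, 5 and 5, and 2 and 4, and the ethanol and acetate list had 3 calls. Upper-quartile factors gave 1 and 2, 4 and 9, and 2 and 4. Requiring 10 counts in every library gave 1 and 2, 1 and 9, and 1 and 4. Leaving out 1 library gave 0 to 1 higher in AKR (1 without sh-ctrl replicate 3, sh-KIF11 replicate 1 or sh-KIF11 replicate 2).

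Signs turned in these cases. With library totals alone the log2 fold change was 0.094 for AKR1B1, 0.12 for AKR1B10, 0.20 for AKR1C3, 0.12 for AKR7A3, 0.14 for ALDH1L1, 0.16 for ALDH5A1 and 0.029 for ALDH7A1. On log2(FPKM + 1) and log2(FPKM + 0.1) it was 0.049 and 0.050 for AKR1B1, 0.052 and 0.053 for AKR1B10, 0.095 and 0.095 for AKR1C3, 0.0088 and 0.041 for AKR7A3, 0.059 and 0.21 for ALDH1L1, and 0.098 and 0.10 for ALDH5A1. With upper-quartile factors it was 0.047 for AKR1C3 and 0.0056 for ALDH5A1. Leaving out 1 library gave -0.050 to 0.0047 for AKR1C3, -0.34 to 0.055 for AKR7A3 and -0.26 to 0.11 for ALDH1L1. The median of the ADH family was 0.25 without a low-count filter, which lets the rare class I genes in.

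Same-numbered libraries of the groups did not deviate together (r = 0.030, -0.018 and -0.0025), so the numbers were not taken as pairs. With a replicate block 4296 genes were higher and 4311 lower in all, and 6 AKR members were lower, AKR1B10 having passed (log2 fold change -0.12, edgeR adjusted p = 0.0232), while the counts of the other families stayed at 1 and 2 for ADH and 3 and 9 for ALDH. Depth limits the 9 untested members and AKR7A3, AKR7L and ALDH1L1, with standard errors of 0.28 to 0.43.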
